A study of Mus musculus with 14 samples.

Results

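The genes described here encode the 2 subunits of calprotectin, the cytokine interleukin-1β and its natural antagonist, and receptors and sensors of innate immune cells. They are S100a8, S100a9, Il1b, Il1rn, Csf3r, Cxcr2, Cd14, Tlr2, Tlr4 and Nlrp3, picked by gene name, and all 10 were found among the 32289 genes of the deposited table. All 10 also passed the filter on low counts and are among the 20351 genes tested. The RNA came from ascending aortic tissue of C57BL/6 mice, taken at 6 weeks of an aneurysm model and sequenced in bulk. The 3 control libraries are labelled PBS. The 4 BAPN libraries came from mice fed β-aminopropionitrile, which blocks lysyl oxidases, the enzymes behind the cross-links of collagen and elastic fibres. Another 3 libraries came from mice given BAPN and Cilengitide, an αV integrin ligand built as a cyclic peptide around the RGD motif. A further 4 came from mice given BAPN and SB273005, also called an integrin αV inhibitor in the labels. No dose, age or sex is given, and no group received an inhibitor without BAPN. Since the labels do not say that samples came from separate animals, each p-value reflects just the spread among the samples, which may be technical.

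S100A8 and S100A9 pair to form calprotectin, a calcium- and zinc-binding protein that neutrophils and monocytes store in bulk and release in inflammation. Released calprotectin, like bacterial lipopolysaccharide, can act on TLR4, for which CD14 is a co-receptor. TLR signalling raises the transcription of Il1b and Nlrp3, the NLRP3 inflammasome activates caspase-1, and caspase-1 cuts the interleukin-1β precursor into its active form. IL-1RA, the product of Il1rn, occupies the interleukin-1 receptor without signalling. CSF3R and CXCR2 are the receptors for G-CSF and for the chemokines that draw neutrophils into tissue.

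Promoter sequences are shown for the calprotectin genes and for 2 of the 3 RefSeq starts of Il1rn, since both calprotectin genes had their lowest levels in PBS and Il1rn was assigned to different starts in different libraries. Each is the 250 bases before a RefSeq transcript start on GRCm38.p6, 5′ to 3′ on the gene's strand, with motif matches in capitals. RefSeq windows, which run to 50 bases past the start, were matched for 8 of the 10 genes. The S100a8 window is at chr3:90668821-90669070 (plus strand), that of S100a9 at chr3:90695722-90695971 (minus strand). The upstream window of Il1rn is at chr2:24336610-24336859 and the downstream one at chr2:24345041-24345290 (both plus strand).
S100a8: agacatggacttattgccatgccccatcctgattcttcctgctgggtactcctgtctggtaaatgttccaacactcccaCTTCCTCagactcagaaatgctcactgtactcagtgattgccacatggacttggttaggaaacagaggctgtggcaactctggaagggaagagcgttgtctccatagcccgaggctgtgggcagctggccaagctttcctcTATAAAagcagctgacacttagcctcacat
S100a9: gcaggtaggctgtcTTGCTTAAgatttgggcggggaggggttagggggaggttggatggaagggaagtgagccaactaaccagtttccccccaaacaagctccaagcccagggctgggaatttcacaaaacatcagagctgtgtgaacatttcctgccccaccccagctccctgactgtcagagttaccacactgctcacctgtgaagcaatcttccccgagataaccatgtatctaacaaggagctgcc
Il1rn upstream: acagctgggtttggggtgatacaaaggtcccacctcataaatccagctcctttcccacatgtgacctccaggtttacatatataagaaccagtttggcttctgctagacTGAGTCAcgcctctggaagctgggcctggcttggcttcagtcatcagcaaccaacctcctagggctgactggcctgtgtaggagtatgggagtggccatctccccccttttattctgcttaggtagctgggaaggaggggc
Il1rn downstream: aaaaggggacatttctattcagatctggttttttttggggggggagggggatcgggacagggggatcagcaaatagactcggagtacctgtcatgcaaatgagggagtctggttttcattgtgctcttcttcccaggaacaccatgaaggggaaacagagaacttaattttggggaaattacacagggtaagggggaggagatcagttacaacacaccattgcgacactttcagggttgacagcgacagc
In S100a8 the capitals mark GAGGAAG, a PU.1-type motif, read on the opposite strand from position -171, and TATAAA from position -30. In S100a9 they mark a C/EBP-type match to TTGCNNAA from position -236; TATAAA also lies from position 1, past the printed bases. In the upstream Il1rn window they mark an AP-1 match to TGANTCA, a letter string that reads the same on both strands, from position -141. None of the motifs searched lies in the printed downstream window. The third Il1rn window, which starts a little further downstream and is not printed, holds TATAAA on the opposite strand from position 15. Both strands were searched for these 4 motifs and for the kappaB consensus in 32851 promoter windows of 300 bases. TTGCNNAA was found in 10.8% of them, TGANTCA in 7.81%, GAGGAAG in 13.6%, TATAAA in 13.6% and the kappaB consensus in 4.51%. Il1b, on chromosome 2, had TATAAA from position -31 and no other motif searched. The kappaB consensus was matched in Tlr2, from positions -173, -172 and -8, and in an Nlrp3 window from position -186. GAGGAAG was matched in Csf3r from position -86 and in another Nlrp3 window from positions -130 and -36. A match describes the letters only.

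Total counts ran from 49027885 to 72584877 per library, so that a count of 0 allows up to 3 counts, which is 0.0413 to 0.0612 CPM (counts scaled to library size). This limit covers counting error only. The 6 smooth muscle markers examined had counts in every library, with Acta2, the smooth muscle actin, between 548 and 6417 FPKM. In SB273005 vs. PBS 2 of the 6 were called lower, where 7.24% of all tested genes were called in either direction. Gene FPKM are scaled to library size and to a length per gene. That length can differ from the length of the transcripts present, so FPKM compare only roughly between genes. Umod and H2-Ea, transcripts not typical of this tissue, parted the libraries into 2 sets that the labels do not name. Umod, a kidney gene, lay between 7.73 and 11.6 FPKM in PBS and SB273005 replicates 1 to 3, whereas the remaining 8 libraries had 19.8 to 25.8 FPKM. Counts of H2-Ea, a gene that is silent in C57BL/6, were 0 throughout those first 6 libraries and 83 to 130 in the remaining 8. Slc12a1, another kidney gene examined, had means of 0.9061, 1.817, 2.102 and 1.406 FPKM in PBS, BAPN, Cilengitide and SB273005. Kap, also a kidney gene, was far more abundant and went the other way, at 243.5, 185.7, 207.5 and 265.7 FPKM in the same order. The kidney genes therefore did not all differ between groups in the same direction. Set and group cannot be told apart for BAPN vs. PBS or for Cilengitide vs. PBS. SB273005 replicates 1 to 3 can be set against PBS within the first set, and those values, with fewer libraries in the fit, are given beside the results of the 10 genes and of the marker and pathway lists.

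All of the 10 genes but Tlr4 had their lowest mean level in PBS. Both calprotectin genes, Il1b, Csf3r, Cd14 and Nlrp3 were called higher than PBS with SB273005. By edgeR over all libraries Il1rn, Tlr2, Tlr4 and Cxcr2 passed in no contrast. Differences are log2 fold changes with SE from edgeR's quasi-likelihood test, with adjusted p under 0.05 as the threshold. Of the 10 genes, none was called in BAPN vs. PBS by edgeR, where 0.113% of all tested genes were, 0.0934% higher. At an unadjusted p under 0.05 there were 7, against 2236 of the 20351 tested, and DESeq2 called 6. In Cilengitide vs. PBS 5 were called, all higher, against 3.17% of all tested genes called and 2.3% called higher. In SB273005 vs. PBS 6 were called, all higher, against 7.24% called and 4.37% called higher. The median differences over the 10 were 2.35, 2.61 and 2.67. Without overlap and higher than PBS were 5 of 10 genes in BAPN, against 6.6% of all tested genes, 8 of 10 with Cilengitide, against 12%, and 7 of 10 with SB273005, against 8.03%. These 3 comparisons share the PBS libraries. S100a8, S100a9 and Cxcr2 reached 10 counts in 0 PBS libraries, so they passed the filter on low counts through BAPN-fed libraries alone. So did the tested list genes with 0 counts in every PBS library. A gene that low in PBS is tested only if it is higher elsewhere, and its contrasts with PBS depend on that. With PBS and SB273005 alone in the fit, or with SB273005 replicates 1 to 3 alone, 1 of the 6 SB273005 calls was left, that of Cd14. Leaving out PBS replicate 3 left 1 of the 5 Cilengitide calls. With only PBS and Cilengitide in the fit, S100a8 (adjusted p = 0.109), Il1b (adjusted p = 0.092) and Nlrp3 (adjusted p = 0.0839) lost theirs, Cd14 and Csf3r kept theirs, and Tlr2 gained one.

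Calprotectin transcripts were close to 0 in PBS and present in each BAPN-fed library. S100a8 was at 0.133, 0 and 0 FPKM in PBS, on 6, 0 and 0 counts. In BAPN it was at 0.416, 0.633, 0.708 and 0.809 FPKM. With Cilengitide it was at 0.954, 1.12 and 0.526 FPKM, and with SB273005 at 0.597, 1.22, 1.14 and 1.35 FPKM. Every one of the 11 BAPN-fed libraries was thus above every PBS library, while the 3 BAPN-fed groups overlapped one another. All 6 PBS counts fell on an annotated retained-intron transcript, so that the spliced coding transcript of S100a8 had 0 counts in each PBS library and 16 to 50 in each BAPN-fed one.

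S100a9 had the same order of low and high libraries between PBS and the rest. PBS libraries were at 0.240, 0.211 and 0 FPKM. BAPN libraries were at 0.790, 1.43, 1.41 and 1.67 FPKM, and those with Cilengitide at 1.40, 1.17 and 0.855 FPKM. SB273005 libraries were at 1.39, 3.61, 2.06 and 3.62 FPKM, of which replicates 2, 3 and 4 lay above all libraries of the other groups. In gene FPKM S100a9 exceeded S100a8 in each BAPN-fed library, by a ratio of 1.90 to 2.26 in BAPN, 1.05 to 1.63 with Cilengitide and 1.80 to 2.96 with SB273005. These ratios depend on the length assigned to each gene, and S100a8 has a retained-intron transcript beside its coding one. In Cilengitide replicate 2 the coding transcript of S100a8 (486 bases) had 41 counts and that of S100a9 (512 bases) had 38. In every other BAPN-fed library S100a9 had the higher coding count.

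Both subunits were higher than in PBS in every contrast, and the contrasts differ in whether the threshold was passed. S100a8 was higher with Cilengitide than in PBS by 4.29 ± 0.92 (adjusted p = 0.0267), and with SB273005 by 4.59 ± 0.91 (adjusted p = 0.0122). S100a9 was higher with SB273005 by 4.05 ± 0.75 (adjusted p = 0.00928). Its difference with Cilengitide, 2.86 ± 0.75, did not pass (adjusted p = 0.056). In BAPN vs. PBS neither passed, at 3.82 ± 0.89 for S100a8 (adjusted p = 0.0969) and 3.01 ± 0.73 for S100a9 (adjusted p = 0.104). DESeq2 called both there, at adjusted p = 0.000157 and 0.000244. Neither PBS level rests on more than 9 counts in a library, so the size of each fold is loosely fixed: without PBS replicate 1, the only PBS library with S100a8 counts, the S100a8 difference for BAPN was 7.87. Within the first library set the SB273005 differences were 4.43 for S100a8 and 3.84 for S100a9, and neither passed (adjusted p = 0.151 and 0.13).

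**Figure D1:**
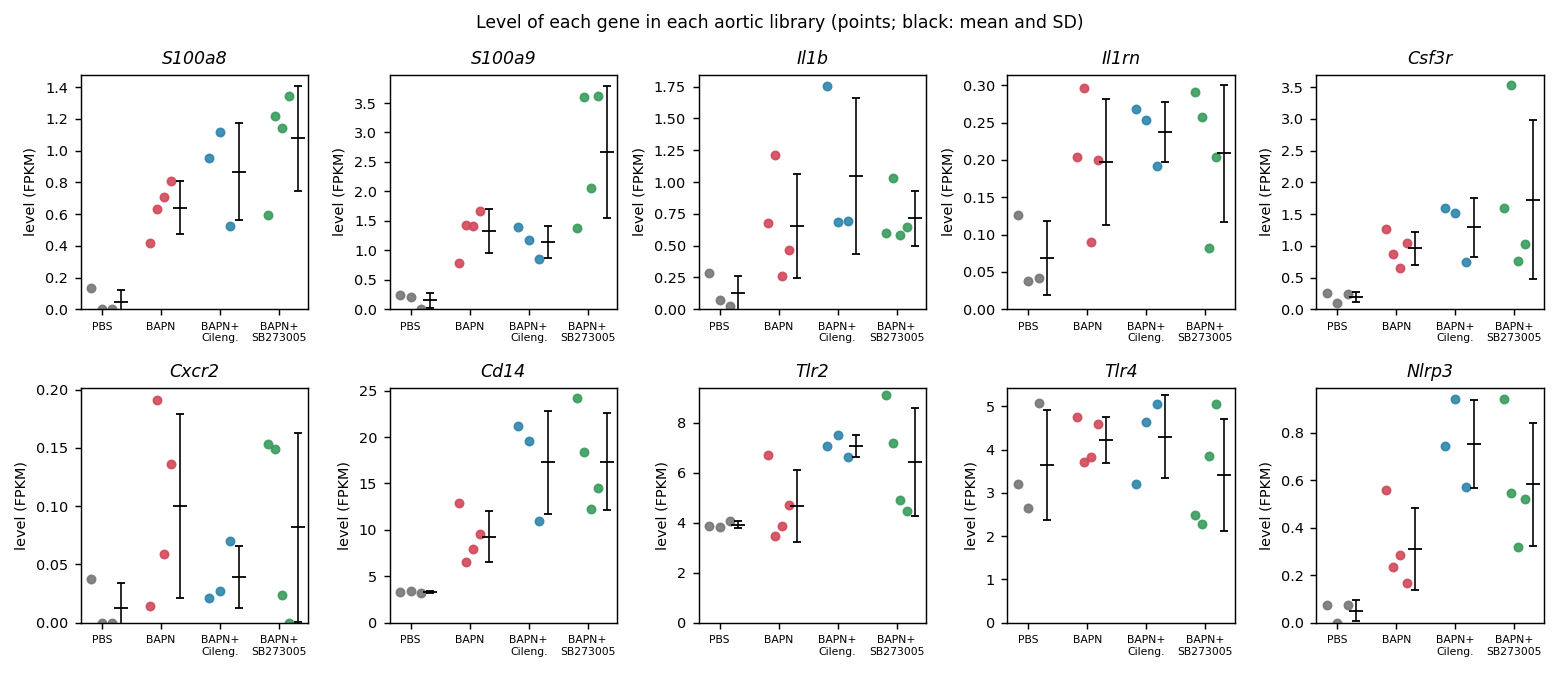
Level of each of the 10 genes in FPKM (vertical axis, from 0, scaled per panel) in each library (points) by group, with mean and SD in black and SD bars cut at 0. S100a8, S100a9, Csf3r, Cd14 and Nlrp3 had every BAPN-fed library above every PBS library, while Tlr4 and Cxcr2 overlapped between all groups.

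The same contrast over the other S100 genes gave no call. Of the 13 genes in that list, which includes Ager, the gene of the receptor RAGE, 12 were tested. None passed in BAPN, Cilengitide or SB273005 vs. PBS by edgeR, and the median log2 differences were 0.08, 0.01 and 0.00, against -0.00, -0.03 and 0.01 over all tested genes. S100a11, an abundant S100 gene of many cell types, was at 308 FPKM on average in PBS and 340, 372 and 326 FPKM in the 3 BAPN-fed groups. S100a4 was at 126 FPKM in PBS and 152, 160 and 100.1 FPKM. In every group these means were far above those of S100a8 and S100a9.

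Il1b, the gene of interleukin-1β, was low throughout and highest in single libraries. PBS libraries were at 0.284, 0.0747 and 0.0286 FPKM, on 32, 11 and 4 counts. BAPN libraries were at 0.681, 1.21, 0.261 and 0.469 FPKM. Cilengitide libraries were at 1.76, 0.688 and 0.697 FPKM, and SB273005 libraries at 0.599, 1.03, 0.580 and 0.647 FPKM. PBS replicate 1 lay above BAPN replicate 3, so PBS and BAPN overlapped, while all libraries of both inhibitor groups lay above PBS. Il1b was higher with Cilengitide than in PBS by 3.09 ± 0.73 (adjusted p = 0.0387) and with SB273005 by 2.55 ± 0.70 (adjusted p = 0.0439). In BAPN the difference was 2.39 ± 0.69 and did not pass by edgeR (adjusted p = 0.186), though it did by DESeq2 (adjusted p = 0.0151). Both Il1b calls are near the threshold. The SB273005 one was lost when any of 10 of the 14 libraries was left out, and within the first set it was 2.56 (adjusted p = 0.171).

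Il1rn, the antagonist gene, had a lower mean FPKM than Il1b in every group. It was at 0.126, 0.0382 and 0.0418 FPKM in PBS, 0.204, 0.297, 0.0903 and 0.201 FPKM in BAPN, 0.268, 0.253 and 0.192 FPKM with Cilengitide, and 0.292, 0.257, 0.0824 and 0.204 FPKM with SB273005. PBS replicate 1 was above 1 library of BAPN and 1 of SB273005, and below all 3 with Cilengitide. None of its differences from PBS passed by edgeR: 1.55 ± 0.54 in BAPN (adjusted p = 0.274), 1.85 ± 0.56 with Cilengitide (adjusted p = 0.0919) and 1.67 ± 0.54 with SB273005 (adjusted p = 0.077; 1.65 within the first set). With the replicate number as a block edgeR called the Cilengitide difference (1.96, adjusted p = 0.0367). DESeq2 called both inhibitor contrasts, at adjusted p = 0.0195 and 0.018. The FPKM ratio of Il1b to Il1rn ran from 0.685 to 2.25 in PBS and from 2.05 to 7.04 in the BAPN-fed libraries. The size of this ratio depends on the length assigned to each gene. By counts Il1rn was above Il1b in each PBS library, at 42, 16 and 17 against 32, 11 and 4. In the BAPN-fed libraries the order of the counts was mixed.

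Il1rn counts were assigned to different transcript starts in PBS and in the BAPN-fed libraries. The gene has an upstream first exon, known to give an intracellular form, and a downstream one, known to give the secreted form. The upstream transcript (ENSMUST00000114487, start at 24336853 on chromosome 2, 159 annotated residues) begins 7 bases from the RefSeq start of the upstream window above. The main downstream transcript (ENSMUST00000114482, start at 24345310, 178 residues) begins 19 bases from that of the downstream window. In PBS the upstream transcript held 40 of 42, 16 of 16 and 17 of 17 counts. In BAPN it held 0 of 92, 43 of 122, 0 of 33 and 0 of 63, and with Cilengitide 31 of 93, 43 of 87 and 31 of 68. With SB273005 it held 0 of 95, 0 of 96, 0 of 25 and 22 of 67. The other Il1rn transcripts together therefore had 2, 0 and 0 counts in PBS and 25 to 96 in each BAPN-fed library, without overlap.

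The split rests on few counts and on how StringTie shares fragments between overlapping transcripts, and it was not tested. Csf3r shows how such assignments can change from library to library: its 2 coding transcripts, both of 837 residues, took 0 and 365 counts in BAPN replicate 1 and 228 and 0 in replicate 2.

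**Figure D2:**
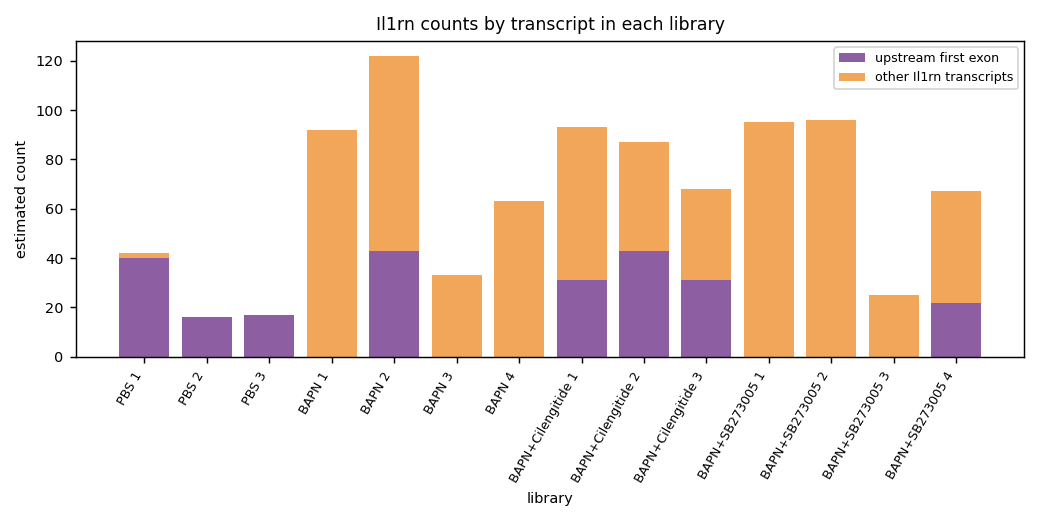
Estimated Il1rn counts (vertical axis) in each of the 14 libraries (horizontal axis), split into the transcript with the upstream first exon and all other Il1rn transcripts. In PBS nearly all counts are on the upstream transcript, and in 6 of the 11 BAPN-fed libraries none is.

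Of the 18 other interleukin-1 family and inflammasome genes, all tested, few passed. In BAPN vs. PBS none did by edgeR. Il1r2, the decoy receptor that binds interleukin-1 without signalling, was the one gene called with Cilengitide, at 2.87 ± 0.67 (adjusted p = 0.0361). Il1rl1, the receptor for interleukin-33, was called with SB273005 at 1.53 ± 0.37 (adjusted p = 0.027), as was Nlrp1b, another inflammasome sensor, at 3.63 ± 0.99 (adjusted p = 0.0427). The SB273005 and PBS means of Il1rl1 were 0.243 and 0.0860 FPKM. Nlrp1b was at 0.741 FPKM in SB273005 replicate 2, which held 310 of the 463 counts of that group, and at 0.0782 to 0.260 FPKM in its other 3 libraries. Without that library Nlrp1b was no longer called (2.60, adjusted p = 0.0867). None of the 18 was called within the first set, with Il1rl1 at 1.73 (adjusted p = 0.0938) and Nlrp1b at 3.93 (adjusted p = 0.18). None of the 18 was called lower. Of all tested genes 2.3% were called higher with Cilengitide and 4.37% with SB273005. The list's median differences were 0.41, 0.64 and 0.94 in BAPN, Cilengitide and SB273005 vs. PBS.

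Nlrp3, the sensor of the inflammasome, was near 0 in PBS, like the calprotectin genes. PBS libraries were at 0.0747, 0 and 0.0759 FPKM, on 18, 0 and 23 counts. BAPN libraries were at 0.559, 0.235, 0.283 and 0.166 FPKM, Cilengitide libraries at 0.745, 0.942 and 0.572 FPKM, and SB273005 libraries at 0.941, 0.546, 0.317 and 0.522 FPKM. No BAPN-fed library was as low as the highest PBS library, and every Cilengitide library exceeded every BAPN library. Nlrp3 was higher than in PBS by 3.96 ± 0.84 with Cilengitide (adjusted p = 0.026) and by 3.57 ± 0.81 with SB273005 (adjusted p = 0.0213). In BAPN the difference of 2.64 ± 0.78 did not pass by edgeR (adjusted p = 0.197) and passed by DESeq2 (adjusted p = 0.00684). Within the first set the SB273005 difference was 3.60 (adjusted p = 0.17).

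Cd14, which hands lipopolysaccharide to TLR4 and is best known on monocytes and macrophages, had the smallest adjusted p of the 10 in each contrast with PBS. PBS libraries were at 3.29, 3.38 and 3.15 FPKM. BAPN libraries were at 12.9, 6.58, 7.94 and 9.54 FPKM, Cilengitide libraries at 21.2, 19.6 and 10.96 FPKM, and SB273005 libraries at 24.3, 18.4, 12.3 and 14.5 FPKM. The PBS libraries lay close together and below all others, and the inhibitor groups reached above the highest BAPN library while overlapping that group. Cd14 was higher than in PBS by 2.44 ± 0.31 with Cilengitide (adjusted p = 0.0062) and by 2.43 ± 0.30 with SB273005 (adjusted p = 0.00207), which is 5.42-fold and 5.40-fold. Within the first set it was the single member still called, at 2.50 (adjusted p = 0.0285). In BAPN it was higher by 1.49 ± 0.29 and missed the threshold by edgeR (adjusted p = 0.0682), while DESeq2 (adjusted p = 0.000171) and edgeR with a replicate block (1.48, adjusted p = 0.0313) called it.

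Tlr2, the receptor for bacterial lipoproteins, showed smaller differences. PBS libraries were at 3.87, 3.83 and 4.06 FPKM and BAPN libraries at 6.69, 3.46, 3.85 and 4.70 FPKM, which overlap. All 3 Cilengitide libraries, at 7.08, 7.52 and 6.63 FPKM, and all 4 SB273005 libraries, at 9.10, 7.18, 4.92 and 4.47 FPKM, were above PBS. The differences from PBS were 0.25 ± 0.25 in BAPN (adjusted p = 0.83), 0.89 ± 0.27 with Cilengitide (adjusted p = 0.0843) and 0.74 ± 0.25 with SB273005 (adjusted p = 0.0907; 0.86 within the first set), and none passed by edgeR over all libraries. With only PBS and Cilengitide in the fit, the Cilengitide difference passed (0.89, adjusted p = 0.0143). DESeq2 called both inhibitor contrasts, at adjusted p = 0.0247 and 0.0383.

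Tlr4, the lipopolysaccharide receptor, overlapped between all groups. It was at 3.22, 2.66 and 5.08 FPKM in PBS, 4.74, 3.71, 3.82 and 4.59 FPKM in BAPN, 3.21, 4.63 and 5.06 FPKM with Cilengitide, and 2.49, 2.27, 3.86 and 5.05 FPKM with SB273005. Its differences from PBS were 0.21 (95% interval -0.40 to 0.82), 0.28 (-0.37 to 0.94) and -0.06 (-0.68 to 0.55) in BAPN, Cilengitide and SB273005. The last of these was -0.35 within the first set and turned to 0.27 without PBS replicate 3. The FPKM ratio of Cd14 to Tlr4 was 0.620 to 1.27 in PBS and 1.78 to 9.73 in the BAPN-fed libraries, without overlap. Cd14 alone parted these libraries too, and so did its ratio to Tlr2, at 0.776 to 0.883 against 1.65 to 3.24.

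Among 25 other genes of Toll-like receptor signalling, all tested, none passed in BAPN vs. PBS by edgeR. With Cilengitide 5 were called higher, against 2.3% of all tested genes. With SB273005 5 were called higher, against 4.37%, and none was called lower. Both comparisons use the same PBS libraries. Tlr13, a receptor for bacterial ribosomal RNA, was higher by 2.70 ± 0.48 with Cilengitide (adjusted p = 0.0129) and by 2.59 ± 0.46 with SB273005 (adjusted p = 0.0081). Tlr7, a receptor for single-stranded RNA, was higher by 2.05 ± 0.44 (adjusted p = 0.0267) and 2.16 ± 0.43 (adjusted p = 0.0122). Ly96, which encodes MD-2, the lipopolysaccharide-binding partner of TLR4, was higher by 1.62 ± 0.37 (adjusted p = 0.0323) and 1.35 ± 0.35 (adjusted p = 0.0354). Tlr8 and Irak3 were also called in each. Irak3, named after its values were seen, encodes a kinase-like inhibitor of this pathway and differed by 1.10 ± 0.27 (adjusted p = 0.0422) and 0.91 ± 0.25 (adjusted p = 0.0453). The list's medians were 0.22, 0.34 and 0.46 in BAPN, Cilengitide and SB273005 vs. PBS. Of the 25, 1 was called within the first set, Tlr7 (2.27, adjusted p = 0.049), with Tlr13 at 2.69 (adjusted p = 0.0505) and Ly96 at 1.25 (adjusted p = 0.246). Without SB273005 replicate 2, Ly96 (adjusted p = 0.0587) and Irak3 (adjusted p = 0.0812) were no longer called.

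Csf3r, the G-CSF receptor of neutrophils and some monocytes, was at 0.249, 0.0982 and 0.234 FPKM in PBS. It was at 1.26, 0.874, 0.646 and 1.05 FPKM in BAPN, at 1.60, 1.52 and 0.751 FPKM with Cilengitide, and at 1.60, 3.53, 0.759 and 1.02 FPKM with SB273005. No BAPN-fed library overlapped PBS, and SB273005 replicate 2 stood highest. That library also had the lowest Acta2, at 548 FPKM against 2724 to 3994 in the rest of its group, and without it Csf3r was higher by 2.58 (adjusted p = 0.00711). Csf3r was higher than in PBS by 2.78 ± 0.55 with Cilengitide (adjusted p = 0.0196) and 3.18 ± 0.54 with SB273005 (adjusted p = 0.00715). The BAPN difference, 2.31 ± 0.52, did not pass by edgeR (adjusted p = 0.0858) and did by DESeq2 (adjusted p = 0.000636). Within the first set the SB273005 difference was 3.35 (adjusted p = 0.0618).

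Cxcr2, the chemokine receptor, had few counts. It had 7, 0 and 0 counts in PBS, 4, 43, 12 and 24 in BAPN, 4, 5 and 14 with Cilengitide and 28, 31, 4 and 0 with SB273005. High and low libraries occur in BAPN and with SB273005, while all Cilengitide libraries were low. None of its differences from PBS passed: 3.05 ± 1.48, 1.75 ± 1.52 and 2.79 ± 1.47 in BAPN, Cilengitide and SB273005 (adjusted p = 0.488, 0.626 and 0.278), with 95% intervals that reach below 0. Within the first set the SB273005 difference was 3.18. Counts ranged from 4 to 43 within BAPN and from 0 to 31 with SB273005, so the data do not settle whether Cxcr2 differs from PBS.

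The ligands of these receptors and related cytokines formed a list of 10, of which 9 were tested. None passed in BAPN vs. PBS by edgeR. With Cilengitide 2 were called higher and with SB273005 2, against 2.3% and 4.37% of all tested genes. Il6, the gene of interleukin-6, had 0 counts in every PBS library and 280, 130 and 154 summed counts in BAPN, Cilengitide and SB273005. Against a limit of 3 counts over the PBS group these sums were at least 69.6-fold, 48.2-fold and 44.6-fold higher. Single libraries had 11 to 157, 9 to 76 and 6 to 77 Il6 counts in these groups. The edgeR adjusted p-values were 0.0801, 0.0341 and 0.0226. Csf1, the macrophage growth factor M-CSF, was higher by 0.99 ± 0.24 with Cilengitide (adjusted p = 0.04) and by 0.80 ± 0.22 with SB273005 (adjusted p = 0.0457), from a mean of 15.1 FPKM in PBS to 29.2 and 25.9 FPKM. Neither gene was called within the first set (Il6 adjusted p = 0.117, Csf1 0.85, adjusted p = 0.215). The medians over the 9 were 1.95, 0.78 and 0.90 in BAPN, Cilengitide and SB273005 vs. PBS, and the same with Il6 and Cxcl3, the genes at 0 in PBS, set at their bounds.

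**Figure D3:**
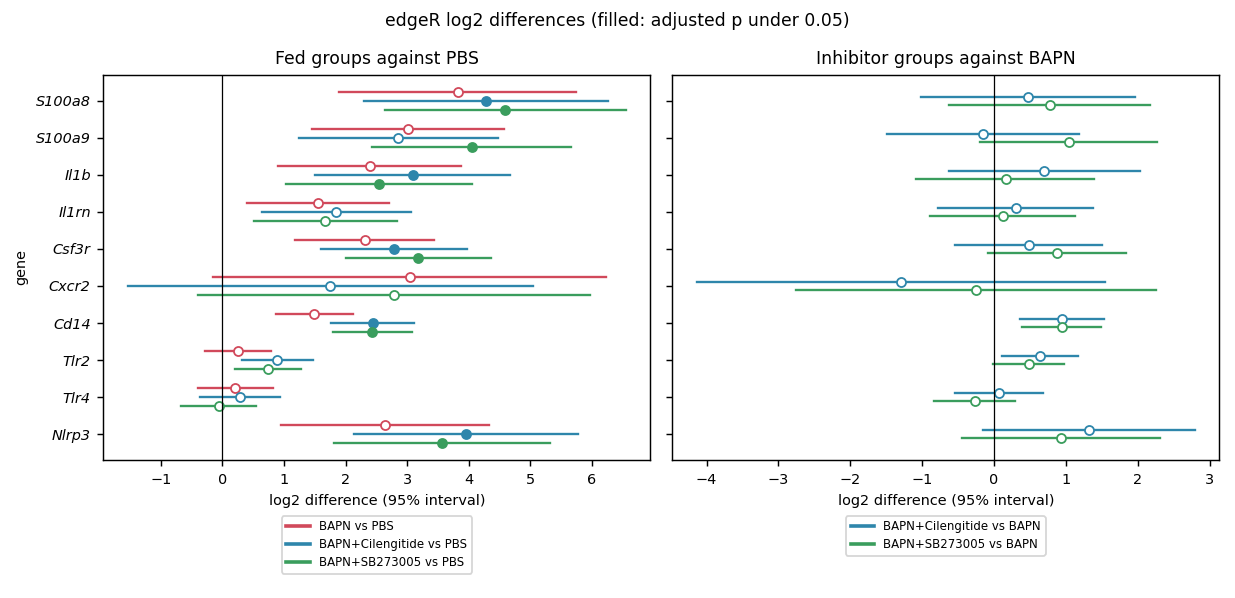
Log2 differences (horizontal axis, points) with 95% intervals (lines) for the 10 genes (vertical axis), each BAPN-fed group vs. PBS on the left and each inhibitor group vs. BAPN on the right, with filled points at an edgeR adjusted p under 0.05. Filled points occur in the left panel alone, 5 for Cilengitide and 6 for SB273005, and the intervals of Cd14 on the right lie above 0.

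Neither inhibitor group differed from BAPN in any of the 10 genes past the threshold. In Cilengitide vs. BAPN edgeR called none of the 10 and 0% of all tested genes, with 2 of the 10 and 1055 of all tested at an unadjusted p under 0.05. DESeq2 called none of the 10. In SB273005 vs. BAPN edgeR again called none of the 10, against 0.00491% of all tested genes, with 1 of the 10 and 2505 of all tested at an unadjusted p under 0.05. DESeq2 called 1 of the 10, Cd14 (0.95, adjusted p = 0.029). The median over the 10 was 0.47 in Cilengitide vs. BAPN and 0.63 in SB273005 vs. BAPN, with 8 of the 10 above 0 in each. The BAPN libraries are shared by both.

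Cd14 had intervals above 0 in both, at 0.95 (0.36 to 1.53, adjusted p = 0.923) with Cilengitide and 0.94 (0.39 to 1.49, adjusted p = 0.224) with SB273005. Nlrp3 in Cilengitide vs. BAPN was at 1.32 (-0.15 to 2.79), the one gene of the 10 with no overlap between those groups, against 2.6% of all tested genes that were higher without overlap. Tlr2 was at 0.64 (0.11 to 1.17) with Cilengitide and 0.49 (-0.01 to 0.98) with SB273005. The S100a8 differences were 0.47 (-1.02 to 1.96) and 0.78 (-0.62 to 2.17), and those of Il1b 0.70 (-0.62 to 2.03) and 0.16 (-1.08 to 1.39). These intervals leave room for rises and falls of more than 1 log2 unit in Il1b with SB273005, and a p above the threshold does not show that levels were alike. Most of the SB273005 libraries lie in the other set from BAPN, so each SB273005 vs. BAPN value also compares the sets. SB273005 replicate 4 is the only library of that group in the set of BAPN, and a fit with it alone has to take its spread from the other groups. In that fit Cd14 was at 0.70 vs. BAPN, S100a8 at 1.12, S100a9 at 1.49, Nlrp3 at 0.79, Il1b at 0.04, Tlr2 at -0.01 and Tlr4 at 0.31, and none passed.

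The 2 inhibitor groups were compared with each other over the same 10 genes, with p-values adjusted over all 20351 tested. Whether their doses match is not known from the labels, and 3 of the 4 SB273005 libraries lie in the other set from Cilengitide, so these values also compare the sets. EdgeR called none of the 10 and 0% of all tested genes, with none of the 10 and 1530 of all tested at an unadjusted p under 0.05, and DESeq2 called none of the 10. Cd14 in SB273005 vs. Cilengitide was at -0.01 (-0.60 to 0.58), and at -0.25 with SB273005 replicate 4 as the only library of its group. S100a9 was at 1.20 (-0.17 to 2.56), with a mean of 2.67 ± 1.13 FPKM (SD, n = 4) with SB273005 and 1.14 ± 0.27 (SD, n = 3) with Cilengitide. For Il1b the difference was -0.55 (-1.87 to 0.78), and for Csf3r 0.40 (-0.63 to 1.43).

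**Figure D4:**
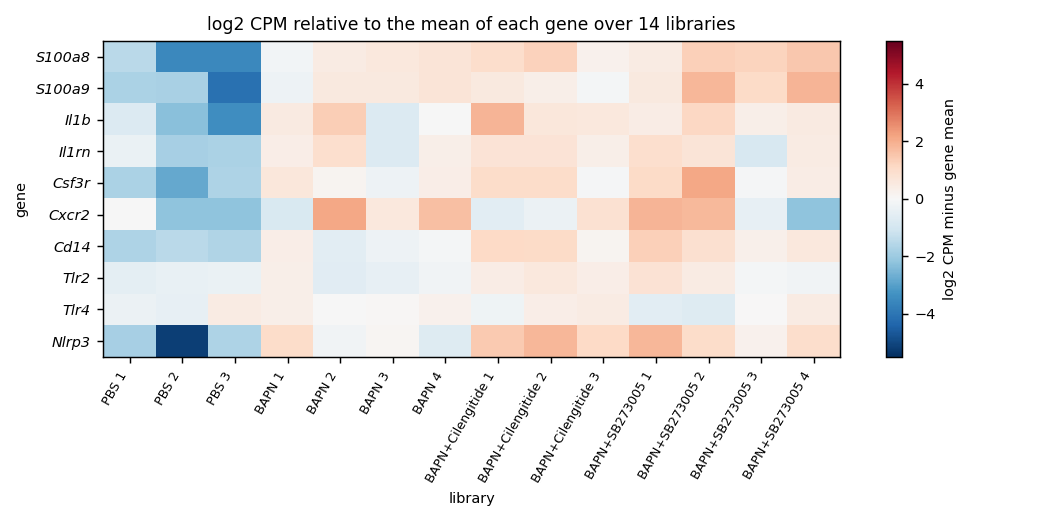
Log2 CPM of the 10 genes (rows) in the 14 libraries (columns) minus the mean of each gene, with red above and blue below that mean. Tlr4 in PBS replicate 3, at 0.44, is the one PBS value above its gene's mean, and Nlrp3 in PBS replicate 2 is the lowest value at -5.17.

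Neutrophil markers were mixed in direction, and their summed level overlapped between PBS and each BAPN-fed group. Of 20 markers 18 were in the table and 13 were tested. Above 0 were 10, 7 and 10 of the 13 in BAPN, Cilengitide and SB273005 vs. PBS. Ly6g, the defining surface marker of mouse neutrophils, had 0 to 4 counts in every library and 0 in all PBS and Cilengitide libraries. Mpo had 0 to 13 counts, and Camp 0 to 16. The summed FPKM of the 18 was 2.41 to 9.87 in PBS, 5.33 to 8.97 in BAPN, 3.80 to 5.90 with Cilengitide and 3.97 to 5.86 with SB273005, so that the PBS range spanned that of every other group. Lcn2, which other cells also make, was 6.68 FPKM of the highest PBS sum. Without Lcn2 the sums were 1.84 to 3.18, 2.51 to 5.02, 2.06 to 3.35 and 2.42 to 3.83 FPKM in PBS, BAPN, Cilengitide and SB273005, which still overlap. Much of the PBS sum without Lcn2 was Mmp9, at 1.34 to 1.71 FPKM in PBS and 0.328 to 0.687 FPKM with SB273005. The overlap of the sums therefore does not describe the other markers. Some markers were lowest in PBS: summed counts in PBS, BAPN, Cilengitide and SB273005 were 0, 55, 58 and 36 for Fpr1, 10, 116, 67 and 108 for Fpr2, and 15, 160, 53 and 141 for Ngp. Against 3 counts over the PBS group, these Fpr1 sums were at least 13.7-fold, 21.5-fold and 10.4-fold higher. Single libraries varied: Fpr1 had 0 counts in BAPN replicate 3 and in SB273005 replicate 2. None passed in BAPN or Cilengitide vs. PBS by edgeR. With SB273005 Mmp8 and Retnlg, of neutrophil granules, were called higher (adjusted p = 0.0269 and 0.0366) and Mmp9 lower, at -1.60 ± 0.34 (adjusted p = 0.0166). Of all tested genes 7.24% were called there in either direction. Mmp8 and Retnlg had 0 counts in all PBS libraries. Against 3 counts over that group, their sums with SB273005 were at least 24.9-fold and 12.7-fold higher. Mmp8 also had 0 counts in SB273005 replicate 1, and Retnlg in SB273005 replicate 2. Mmp9 alone was called within the first set (-1.87, adjusted p = 0.0397). The list's median was 1.64, 0.13 and 1.55 in BAPN, Cilengitide and SB273005 vs. PBS, and 1.14, 0.13 and 1.55 with genes at 0 in PBS set at their bounds.

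Most macrophage and monocyte markers were called higher in both inhibitor groups vs. PBS. In bulk tissue, a change in the number of cells of a type and a change in RNA per cell cannot be told apart. All 17 were tested and had counts in every library, and 1 was called higher in BAPN, 12 with Cilengitide and 14 with SB273005, with none called lower. Of all tested genes 0.0934%, 2.3% and 4.37% were called higher. Above 0 were 15, 16 and 16 of the 17; Ly6c2, a monocyte marker, had a mean of 0.828 FPKM in PBS and 0.554, 0.629 and 0.741 FPKM in BAPN, Cilengitide and SB273005. Of the 17, 9 were called within the first set. Mrc1, the mannose receptor, was the one called in BAPN, at 1.84 ± 0.26 (adjusted p = 0.0327). C1qb, a complement subunit that tissue macrophages make, was higher by 2.38 ± 0.35 with Cilengitide (adjusted p = 0.00671) and by 2.33 ± 0.34 with SB273005 (adjusted p = 0.00347). The summed FPKM was 169.5 to 332 in PBS, 356 to 858 in BAPN, 554 to 1112 with Cilengitide and 568 to 1225 with SB273005, with every BAPN-fed library above PBS. The part of these cells in the results on the 10 genes was not tested.

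**Figure D5:**
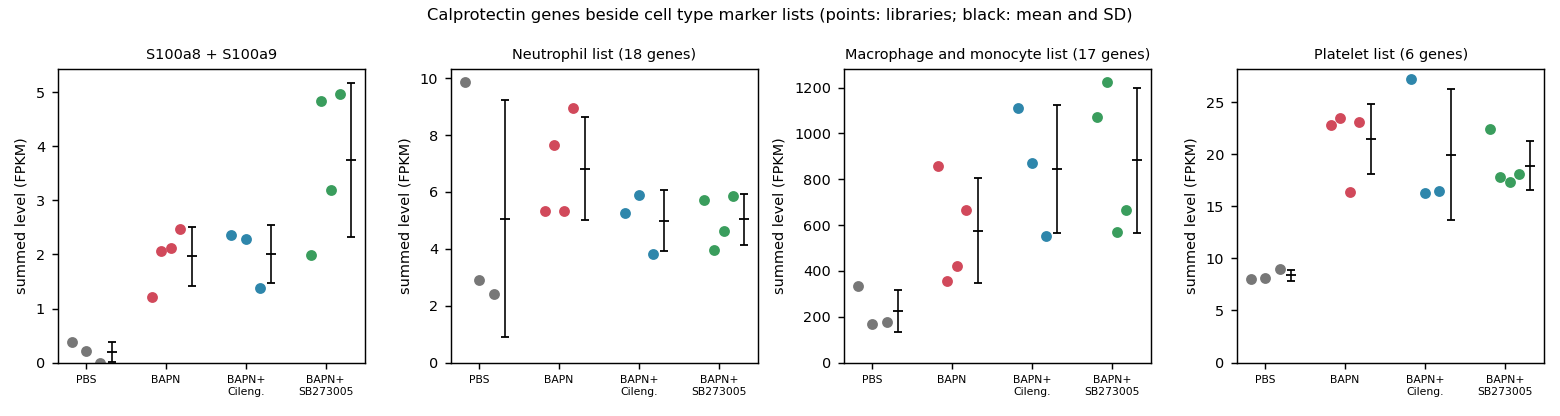
Summed level in FPKM (vertical axes, from 0) per library (points, by group, with mean and SD in black) of S100a8 with S100a9 and of the neutrophil, macrophage and monocyte, and platelet marker lists. The neutrophil sum in PBS replicate 1, 9.87, of which Lcn2 makes up 6.68, is the highest of all 14, while the macrophage sum is lowest in the 3 PBS libraries.

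Markers of other cells were examined beside these. Pf4, a platelet chemokine that some macrophages also express, was called higher in each BAPN-fed group vs. PBS, by 1.44 ± 0.21 (adjusted p = 0.0366), 1.45 ± 0.22 (adjusted p = 0.00794) and 1.26 ± 0.21 (adjusted p = 0.00694), and no other of the 5 platelet genes tested was. Of all tested genes 0.0934%, 2.3% and 4.37% were called higher in these contrasts. Within the first set Pf4 was at 1.23 with SB273005 (adjusted p = 0.0589). None of the 6 keratinocyte genes tested passed by edgeR, and their list summed to 1.18 to 2.32 FPKM in PBS and 1.48 to 5.10 FPKM in the BAPN-fed libraries. Erythroid genes summed to 142 to 621 FPKM in PBS and 128 to 6131 FPKM in the rest, with no call. B and T cell genes reached 93.3 FPKM in 1 PBS library and at most 8.58 FPKM in the BAPN-fed ones, with no call. The part of these cells was likewise not tested.

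Over the 14 libraries, the genes most like Cd14 in log2 CPM were C1qb, C1qc, C1qa, Csf1r and C1s1, with Pearson's r of 0.987, 0.981, 0.980, 0.977 and 0.975. All but the last encode markers in the macrophage list. Over the 11 BAPN-fed libraries alone the values were 0.979, 0.950, 0.944, 0.933 and 0.908. For S100a8 the leading genes were Rab25, Ms4a4a, Ms4a6b, Ly96 and Nuak2, at 0.911 to 0.889, which dropped to between 0.157 and 0.498 over the BAPN-fed libraries. For Il1b they were Il17ra, Efcab11, Cdk1, Hmox1 and Clec4d, at 0.914 to 0.898 over 14 libraries and 0.411 to 0.901 over 11, with Hmox1 the highest in the latter. Libraries share their group and set, so these values are descriptions.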

How the data were processed

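The 14 libraries were grouped by their labels and all were used. Trizol extraction and SuperScript II reverse transcription are stated per the labels' protocols. Per the submitters' processing notes, HISAT2 2.2.1, StringTie 2.1.6 and mm10 were used; annotation release and strandedness are both not given in sources used here, and reads of overlapping and antisense genes cannot be told apart. The authors deposited FPKM, scaled to length and library size, and estimated counts that are whole numbers, both per gene and per transcript. The length behind a gene's FPKM can differ from that of the transcripts present. Levels are the deposited FPKM. Differences are log2 fold changes from edgeR 4.0.16 in R 4.3.3 (quasi-likelihood test, TMM normalisation, 1 fit over all 14 libraries) on the estimated counts, for 20351 genes with 10 or more counts in at least 3 libraries, with Benjamini-Hochberg adjustment and a threshold of 0.05. Each SE was worked back from the F statistic, and the 95% intervals use a t distribution and are approximate. Since estimated counts are not reads assigned whole, the model of counting error is an approximation. Log2 CPM used a prior count of 2. Alternatives were DESeq2 1.42.0, its size factors in edgeR, limma 3.58.1 on log2(FPKM + 1), other filters, a replicate block, fits with fewer groups and leaving out each library. The fit limited to BAPN, Cilengitide and SB273005 replicate 4 and the settings for list genes (the first library set, without SB273005 replicate 2, the neutrophil sum without Lcn2) were added after seeing the data. Fits were first tested on simulated data. The 10 genes, the lists and the tests were chosen with earlier results of these data known. Named genes are the 10, up to 3 per other list and comparison by smallest p, the 5 most like S100a8, Il1b and Cd14 by Pearson's r (predicted genes aside), and Umod, H2-Ea and Acta2. Further genes were named after their values were seen: Tlr8, Irak3 and Mmp9 where a list's calls were few, S100a11 and S100a4 in comparisons outside the rule, Ly6g, Mpo and Camp for their low counts, Fpr1, Fpr2, Ngp, Lcn2 and Ly6c2 for the direction of their levels, and Cxcl3 for its bound.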

Additional observations from a re-analysis of the deposited data

Results flagged for a closer look

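In 1 of 20 groups of 4 libraries examined over the 10 genes, a library stood apart from the rest of its group. Il1b in SB273005 replicate 2 was at 1.034 FPKM, with the other 3 libraries of that group between 0.580 and 0.647 FPKM. Chance alone marks about 1 in 20 such groups. That library also had the lowest Acta2 of its group, at 548 FPKM, and the highest Csf3r, at 3.53 FPKM. The cause was not tested.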

How the results depend on the processing

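Calls depended on the fit more than directions did. Of the results on single genes under settings that left out no library for its own sake, 390 kept direction and side of the threshold, 16 passed where the reported fit did not, 18 no longer passed and 8 turned direction. DESeq2 called 552, 1755 and 2875 genes in BAPN, Cilengitide and SB273005 vs. PBS, where edgeR called 23, 646 and 1474, and 34, 375 and 43 in Cilengitide vs. BAPN, SB273005 vs. BAPN and SB273005 vs. Cilengitide, where edgeR called 0, 1 and 0. It called 6 of the 10 genes in BAPN, 8 in Cilengitide and 8 in SB273005 vs. PBS, and 1 in SB273005 vs. BAPN. In BAPN vs. PBS no filter gave 3 genes, limma 7, the groups compared alone 61 and the replicate block 141, with 1 of the 10 genes, Cd14, called under the block. In Cilengitide vs. PBS no filter gave 421 genes and the groups alone 971; 3 of the 10 genes were called by limma, without Il1b and Csf3r, and 3 with the groups alone, without S100a8, Il1b and Nlrp3 and with Tlr2. In SB273005 vs. PBS the groups alone gave 372 genes and SB273005 replicates 1 to 3 alone 270, each with 1 of the 10. In SB273005 vs. BAPN the FPKM filter gave 4, no filter 0, limma 3, the block 2 and the groups alone 0. With SB273005 replicate 4 alone, an arm of 1 library assumed to vary like the other groups, 29 genes were called vs. BAPN and 30 vs. Cilengitide.

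That lone library put Tlr2 (-0.01) and Tlr4 (0.31) on the other side of 0 vs. BAPN, and Csf3r (-0.33), Cxcr2 (-6.04) and Tlr4 (0.24) vs. Cilengitide. It has 0 Cxcr2 counts, so the size of that value is set by the prior count. Cd14 in SB273005 vs. Cilengitide, at -0.01, became 0.02 with the FPKM filter, 0.01 with limma and 0.02 with the replicate block. The cause was not tested. The replicate numbers were not taken to pair libraries, since not every same-numbered pair passed 0.1. Of 19 same-numbered pairs, 8 had a correlation of deviations over 0.1 (range -0.15 to 0.19), and 9 of 14 libraries correlated best with their own number. A smaller share of the differently numbered pairs passed 0.1. These values do not show that the numbers are without meaning, and whether they mark a pairing was not tested.

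Leaving out 1 library gave 0 to 84 genes in BAPN vs. PBS (0 to 1 of the 10 genes), 91 to 1151 in Cilengitide vs. PBS (1 to 6) and 317 to 1696 in SB273005 vs. PBS (5 to 7), the lowest without PBS replicate 3, 2 and 2. It gave 0 to 1 in Cilengitide vs. BAPN, 0 to 54 in SB273005 vs. BAPN and 0 to 15 in SB273005 vs. Cilengitide. Directions turned for Tlr4 in SB273005 vs. PBS (-0.33 to 0.27), for S100a9 (-0.35 to 0.01) and Tlr4 (-0.06 to 0.25) in Cilengitide vs. BAPN, for Il1b (-0.10 to 0.64), Il1rn (-0.12 to 0.39) and Cxcr2 (-0.75 to 0.27) in SB273005 vs. BAPN, and for Il1b (-0.78 to 0.03), Il1rn (-0.39 to 0.08), Csf3r (-0.20 to 0.65) and Cd14 (-0.26 to 0.15) in SB273005 vs. Cilengitide. S100a8, Il1b and Csf3r in Cilengitide vs. PBS lost their call without PBS replicate 2 or 3 or Cilengitide replicate 1 or 2, and Nlrp3 without PBS replicate 3 or either of those Cilengitide libraries. Il1b there also lost it without Cilengitide replicate 3 or SB273005 replicate 3. Low counts in PBS limit every fold of S100a8, S100a9, Cxcr2 and Nlrp3.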
